A study of Mus musculus with 4 samples.

Results

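Kdr, Flt1, Pecam1, Cdh5, Tek, Tie1, Tal1, Lmo2 and Eng, a named set of endothelial and hemangioblast genes, were followed in mouse embryos with a GFP insertion in Noto. The set was given as a list of names, with no threshold on measured values, but it was drawn up with earlier results of these data known. It held 9 of the 27591 genes that the array names, read by 17 of its 41174 gene probes. Of the 9 genes 7 were measured, against 18579 genes in all, and Pecam1 and Tie1 were not. A probe counted as measured when at least 1 genotype was well above background on both arrays. The study asked which genes act downstream of FOXJ1, and Noto is a node and notochord transcription factor studied for that purpose.

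The embryos were at the early headfold stage, at about E7.75, on a hybrid background of Sv129 and CD-1. Homozygous embryos (Noto GFP/GFP) were compared with heterozygous ones (Noto GFP/+). Both groups carried the GFP insertion, so no wild-type embryo stood in the comparison, although the series' design text calls the control samples wildtype. The distal piece of each embryo, with the node at its tip, was pooled with others, 120 to 150 to a pool, and how large that piece was is given differently in separate fields of the labels. Labelled RNA of both genotypes was hybridised to an Agilent 2-colour array. A further array of the same RNA had the dyes swapped and is labelled a technical replicate. The 4 samples thus stand for 1 RNA pool per genotype as far as the labels tell, and no significance test could be made. The SD given here is over the 2 arrays and measures technical spread. In pooled tissue, fewer cells of a type and less RNA per cell cannot be told apart.

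Endothelial and blood cells of the early embryo arise from mesoderm of the posterior streak, partly through a shared progenitor called the hemangioblast. Signalling by VEGF through the receptor tyrosine kinase encoded by Kdr is required for both lineages. The transcription factors Tal1 and Lmo2 act inside these progenitors, and the adhesion molecules Pecam1 and Cdh5 and the receptors Tek and Tie1 mark cells that have become endothelium.

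Probes are shown for the genes that read on one side of 0 on both arrays (Kdr, Flt1, Tek, Tal1 and Lmo2), since the probes of 1 gene can read different stretches of its transcript, and for Pecam1, whose probe bridges an intron. Each is written 5′ to 3′ in the sense of the transcript and taken from the array files. For the Lmo2 and Pecam1 probes, which bridge an intron, all 60 bases are given, and for the others the central 30 bases (bases 16 to 45).
Kdr: gaattttaacctataaaactatgtctactg
Flt1, first downstream probe: atcgggattctctggttctgcttaaagact
Flt1, second downstream probe: ttttaataatctaattcgtgatcattaaga
Flt1, upstream probe: gcattcaaagatgtccacaacccatgtatc
Tek, downstream probe: atatactgctcggagtaagaatgtgctaag
Tek, upstream probe: tagcagtgttaccccctctttaattccata
Tal1: tgcgggcgtgtgactctttattgaaaaaca
Lmo2: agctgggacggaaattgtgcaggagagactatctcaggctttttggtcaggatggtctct
Pecam1: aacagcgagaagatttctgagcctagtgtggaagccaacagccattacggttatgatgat

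Probe positions below are those in the array files, on mouse build mm8, with no gene models of that build used here to assign exons or UTRs. Upstream and downstream refer to the direction of transcription. Levels are normalised log2 intensities and are set only against the same probe in the other genotype, apart from the marker lists. For those lists linear levels were summed over probes, so brighter probes weigh more in a sum. Ratios are log2 values of homozygote over heterozygote on the same array. A gene was called when its ratio was 1.5-fold or more, a log2 value of 0.58, and pointed one way on both arrays.

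No member was called, 0 of the 7 measured genes. By the same rule 2.4% of all measured genes were called, 2.34% lower and 0.0592% higher in the homozygote. The median ratio of the 7 genes was 0.03, with medians of 0.04 on array 1 and 0.07 on array 2, against -0.02 over all measured genes. Flt1, Tek and Lmo2 read above 0 on both arrays, Kdr and Tal1 below 0 on both, and Cdh5 and Eng with opposite signs. Over all measured genes 25.7% were above 0 on both arrays, 34% below 0 on both and 40.3% of opposite sign. On the plot of array 1 against array 2, no member lay beyond the fold limit on both arrays.

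**Figure D1:**
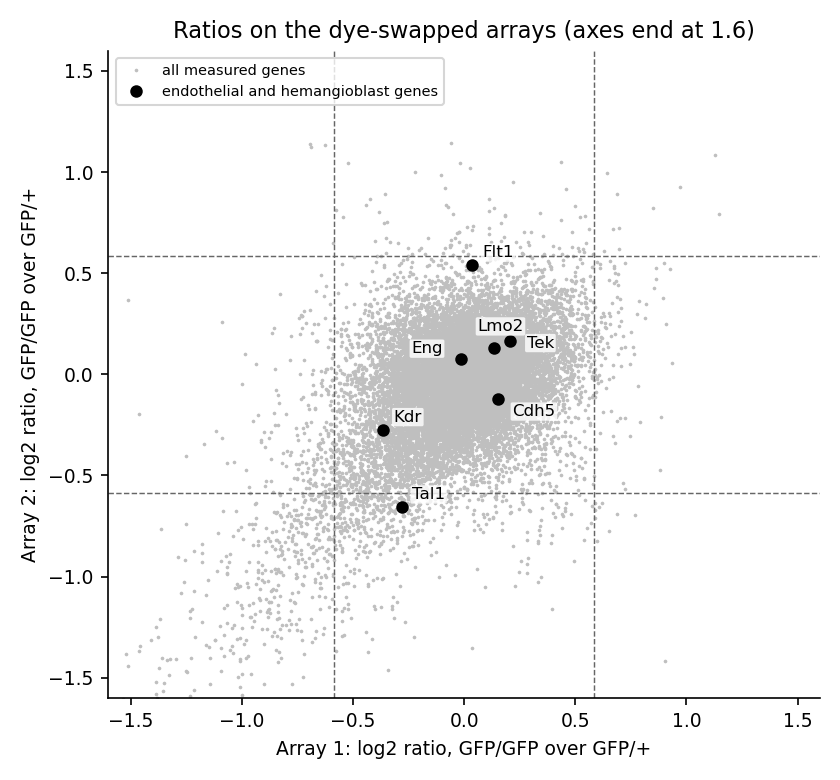
Log2 ratio of homozygote over heterozygote on array 1 (horizontal) against array 2 (vertical). Grey points are all measured genes, black points the 7 measured endothelial and hemangioblast genes, and dashed lines mark 1.5-fold; 40 genes lie outside the axes, which end at 1.6. Tal1 is past the line on array 2 only, and no black point is past the lines on both arrays.

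Kdr encodes VEGF receptor 2, the main signalling receptor for VEGF and an early marker of mesoderm that forms vessels and blood. Its measured probe (chr5:76214981-76215040, minus strand) was printed as 10 spots on each array. The heterozygous level was 11.59 on array 1 and 11.21 on array 2, and the homozygous level was 11.23 and 10.93. The homozygote was lower on each array, while its level on array 1 was above the heterozygous level on array 2, so the groups overlapped between arrays. The ratios were -0.36 and -0.28, with a mean of -0.32 ± 0.06 (SD, n = 2 arrays).

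The repeated spots show how precisely a single array read this ratio. On array 1 the 10 Kdr spots lay between -0.41 and -0.29 with an SD of 0.040, and on array 2 between -0.31 and -0.25 with an SD of 0.018. All 10 were below 0 on each array and all were well above background in both genotypes. Over 190 measured probes with 10 spots the median SD between spots was 0.051 on array 1 and 0.036 on array 2. The spots repeat 1 hybridisation each, so this spread leaves out embryos, extraction and labelling. A second Kdr probe, 28.3 kb upstream (chr5:76243311-76243370), was not well above background in either genotype on either array.

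**Figure D2:**
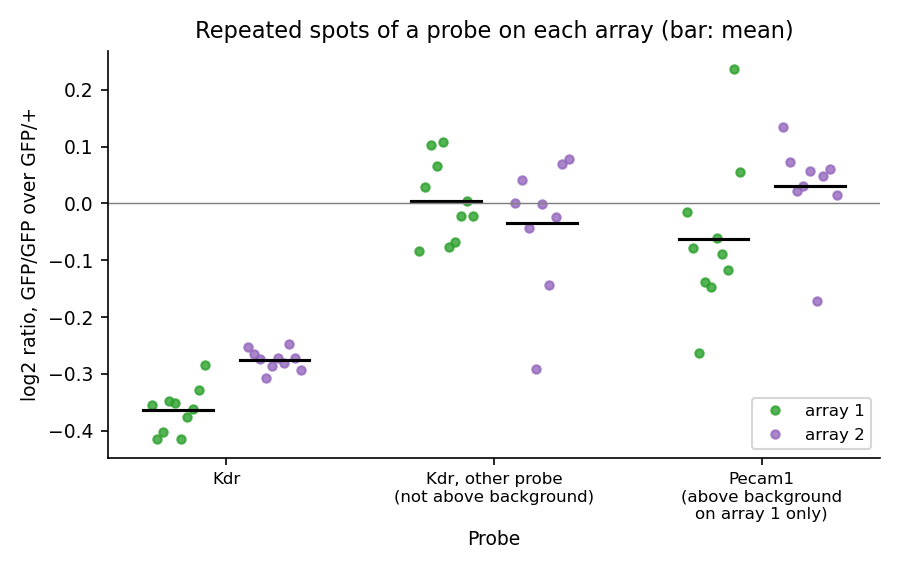
Log2 ratio of homozygote over heterozygote (vertical axis) for each repeated spot of 3 probes, with green points for array 1, purple points for array 2 and bars for the means. All 10 spots of the measured Kdr probe are below 0 on each array, while the spots of the second Kdr probe and of the Pecam1 probe fall on both sides of 0.

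Flt1 encodes VEGF receptor 1, which binds VEGF tightly and in a soluble form limits how much reaches Kdr. It had 5 probes, of which 3 were measured. The brightest (chr5:147872564-147872623, minus strand) read 12.91 and 12.03 in the heterozygote and 12.94 and 12.57 in the homozygote on arrays 1 and 2. The groups overlapped. The ratios were 0.04 and 0.54, and their mean, 0.29 ± 0.36, was smaller than the spread between arrays. The second downstream probe (chr5:147872637-147872696) lies 13 bases from the first. It read 10.44 and 10.55 in the heterozygote and 10.65 and 10.89 in the homozygote, with ratios of 0.21 and 0.34 (0.28 ± 0.09). These levels did not overlap, as for 10.7% of all measured genes with the homozygote higher. That share counts each gene by its brightest measured probe, which for Flt1 is the first.

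The third measured Flt1 probe lies 75.9 kb upstream of the second (chr5:147948554-147948613). Its heterozygous levels were 9.75 and 9.37 and its homozygous levels 9.52 and 9.39, which overlapped, with ratios of -0.23 and 0.02 (-0.11 ± 0.17). The first downstream probe exceeded it in ratio by 0.26 and 0.52 on arrays 1 and 2 (0.39 ± 0.18). The second downstream probe exceeded it by 0.44 and 0.33 (0.38 ± 0.08). These differences were above 0 on both arrays under each of 5 ways of processing. The downstream probes themselves differed by -0.17 and 0.20, first minus second, so their order changed between arrays. Of the remaining Flt1 probes, 1 (chr5:147964749-147964808) was well above background on array 1 only, with ratios of -0.01 and 0.02, and 1 (chr5:147955905-147955964) on neither array. How the array's probes divide between membrane-bound and soluble forms of Flt1 was not examined.

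Tek encodes the angiopoietin receptor of endothelium and had 2 probes. The downstream probe (chr4:94366188-94366246, plus strand) read 7.46 and 7.89 in the heterozygote and 7.67 and 8.05 in the homozygote. The homozygote was higher on each array, with overlap between arrays, and the ratios were 0.21 and 0.16 (0.18 ± 0.03). The upstream probe, 132 kb away (chr4:94233814-94233873), read 7.55 and 7.65 in the heterozygote and 7.38 and 7.19 in the homozygote. These did not overlap, as for 16.6% of all measured genes with the homozygote lower. That share counts each gene by its brightest measured probe, which for Tek is the downstream one. The ratios were -0.18 and -0.46 (-0.32 ± 0.20), with the homozygote well above background on array 1 only. This probe counted as measured through the heterozygote, where it was the higher, so its ratio on array 2 is set against a value not above background.

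The value of Tek as a gene depended on whether that upstream probe entered, at 0.18 with the downstream probe alone and -0.07 with the mean of both. The downstream probe alone also changed with processing, from 0.03 with median centring in place of loess to 0.44 with the deposited value table. Tie1, the orphan partner of Tek in endothelium, had a single probe (chr4:117969459-117969518, minus strand). Its levels were 7.01 and 6.78 in the heterozygote and 7.03 and 6.70 in the homozygote. Both genotypes were well above background on array 1 and neither on array 2, so Tie1 was not measured, and its ratios there were 0.02 and -0.08.

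**Figure D3:**
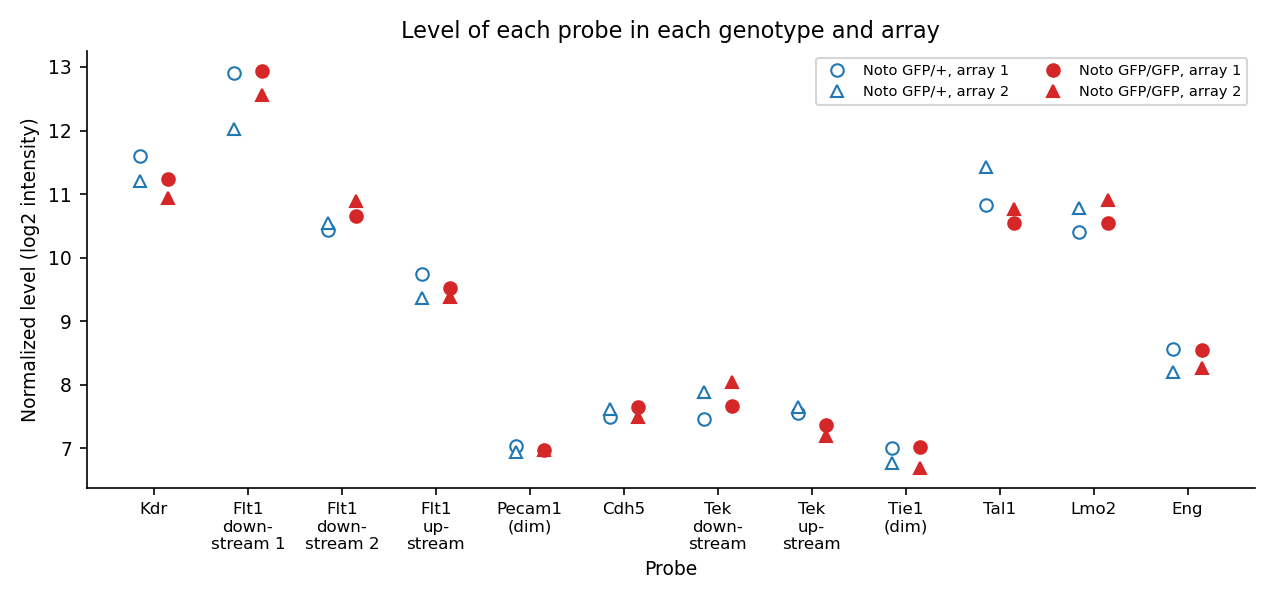
Normalised log2 intensity (vertical axis) of 12 endothelial and hemangioblast probes in each genotype and array (open blue: heterozygote; filled red: homozygote), namely the 10 measured ones and those of Pecam1 and Tie1, along the horizontal axis. Levels compare only within a probe: the 2 homozygous Tal1 values (10.54 and 10.77) lie below both heterozygous values (10.82 and 11.42), while the values of Cdh5 and Eng intermix.

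Eng encodes endoglin, a co-receptor for ligands of the TGF-beta family on endothelium and on early blood progenitors. Its probe (chr2:32503799-32503858, plus strand) read 8.57 and 8.20 in the heterozygote and 8.55 and 8.27 in the homozygote. The ratios of -0.01 and 0.07 gave a mean of 0.03 ± 0.06, within the technical spread of 0.

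Neither transcription factor gene of the hemangioblast, Tal1 or Lmo2, was called. Tal1 encodes a basic helix-loop-helix factor without which no blood forms. Its probe (chr4:114569550-114569610, plus strand) read 10.82 and 11.42 in the heterozygote and 10.54 and 10.77 in the homozygote. The homozygote was lower on each array and the groups did not overlap, as for 16.6% of all measured genes in that direction. The ratios were -0.28 and -0.66 (-0.47 ± 0.27), past 1.5-fold on array 2 but not on array 1, so Tal1 was not called. On array 2 alone it would be the 1 called member of the set. That array alone called 944 of all 18579 measured genes lower and 112 higher.

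Lmo2 encodes the adaptor that bridges Tal1 to GATA factors in one complex. Its probe bridges an intron (chr2:103777023-103781736, plus strand). Lmo2 read 10.41 and 10.78 in the heterozygote and 10.54 and 10.91 in the homozygote. The ratio was 0.13 on each array (0.13 ± 0.00), the closest agreement between arrays in the set, although the levels overlapped between arrays.

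Of the adhesion genes of differentiated endothelium, Cdh5 was measured and Pecam1 was not. Cdh5 encodes VE-cadherin, the cadherin of endothelial junctions. Its measured probe (chr8:107033388-107033447, plus strand) read 7.49 and 7.62 in the heterozygote and 7.65 and 7.50 in the homozygote. The order of the genotypes changed between arrays, with ratios of 0.15 and -0.12 (0.01 ± 0.19). A second Cdh5 probe (chr8:107032728-107032787) was not well above background on either array.

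Pecam1 encodes CD31, an adhesion molecule of endothelium and of early embryonic cells. Its probe bridges an intron (chr11:106497165-106499018, minus strand) and was printed as 10 spots. It read 7.03 and 6.94 in the heterozygote and 6.97 and 6.97 in the homozygote. On array 1, 10 homozygous and 9 heterozygous spots passed as well above background. On array 2 this held for 0 of the 9 spots used in either genotype, so Pecam1 was not measured. The spots ranged from -0.26 to 0.24 on array 1 and from -0.17 to 0.14 on array 2, on both sides of 0. A further probe that the names assign to Pecam1 (chr11:106497834-106497893) lies within the stretch that the first probe skips, and it was not well above background.

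For Kdr and Tal1, the genes that read below 0 on both arrays, the 250 bases before the RefSeq start site (build GRCm38.p6) are shown with motif matches in capitals. Motifs searched on both strands were CCGGAAG for ETS factors, AGATAA for GATA factors and CAGNTG for the E-box that factors such as Tal1 bind. No overlap between these motifs occurs in the matches shown. The Kdr window (chr5:75978456-75978705, minus strand) held 1 E-box, and the first of 2 Tal1 windows (chr4:115056176-115056425, plus strand) held 1 GATA match, on the reverse strand.
Kdr promoter: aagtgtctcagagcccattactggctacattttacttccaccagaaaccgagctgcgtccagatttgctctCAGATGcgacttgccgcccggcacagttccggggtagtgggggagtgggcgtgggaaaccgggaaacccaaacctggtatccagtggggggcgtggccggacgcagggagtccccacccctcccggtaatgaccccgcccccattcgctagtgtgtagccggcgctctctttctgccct
Tal1 promoter: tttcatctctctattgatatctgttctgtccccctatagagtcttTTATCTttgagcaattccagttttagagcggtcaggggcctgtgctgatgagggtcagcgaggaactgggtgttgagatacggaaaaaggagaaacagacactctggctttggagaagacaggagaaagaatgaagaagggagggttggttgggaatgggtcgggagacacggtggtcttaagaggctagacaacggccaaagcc
The table held 7 windows for 6 of the genes, and none for Pecam1, Cdh5 or Lmo2 was matched. An E-box was in 3 of the 7 (Eng, Kdr and Tie1) and in 44.8% of all 32851 promoter windows. A GATA match was in 1 and in 9.99% of all, and an ETS match in 0 and in 6.91% of all. These letter matches describe the windows only.

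Which members read below or above 0 depended in part on the scaling between the dyes. With median centring in place of loess, Kdr read 0.06 and -0.34 and Tal1 0.08 and -0.72, so both lost their sign on array 1. The median of all measured genes was then 0.39 on array 1 and -0.16 on array 2. Across all measured genes the ratios on the 2 arrays correlated at 0.50 with loess and at -0.05 with median centring. Median centring shifts all genes of an array by the same amount, so a dye effect that varies with intensity stays in. Relative to that median Kdr read -0.33 and -0.17 and Tal1 -0.31 and -0.56, below it on both arrays. Flt1 (0.18 and 0.62) and Lmo2 (0.08 and 0.24) were above it on both. Tek (-0.47 and 0.30), Cdh5 (-0.52 and 0.06) and Eng (-0.41 and 0.20) were of opposite sign. On array 1, Tek was above 0 with loess, the software's log ratio and the value table, and below 0 with median centring (-0.07).

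**Figure D4:**
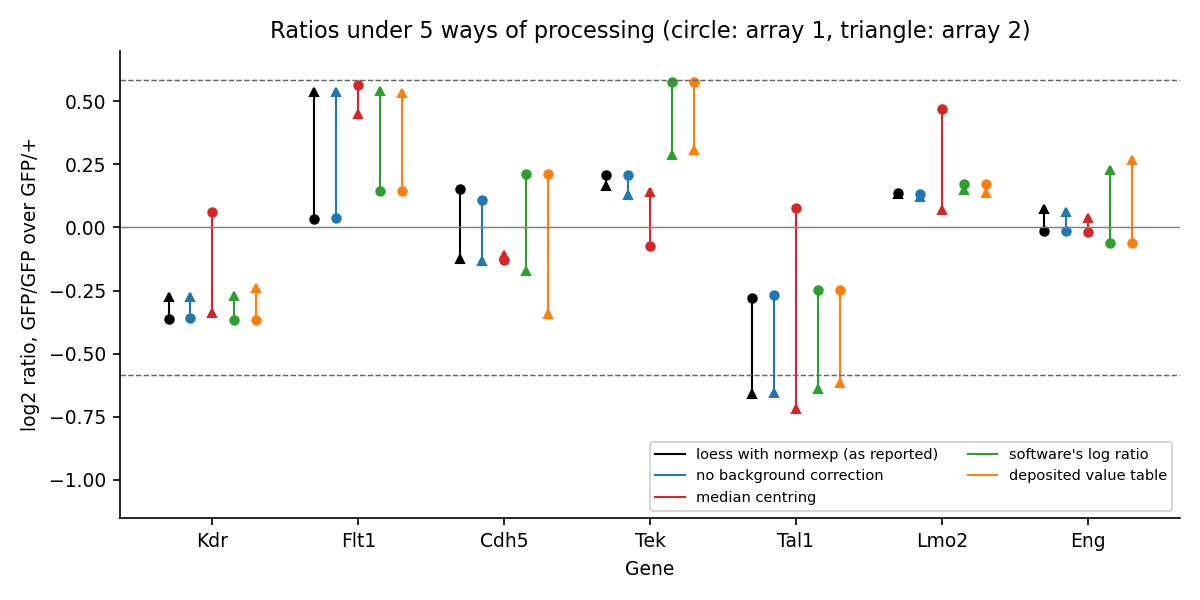
Log2 ratio of homozygote over heterozygote (vertical axis) of the 7 measured genes under 5 ways of processing, with circles for array 1, triangles for array 2 and dashed lines at 1.5-fold. Kdr and Tal1 are below 0 on both arrays in all but median centring, where array 1 reads 0.06 and 0.08, and no gene passes a dashed line on both arrays.

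Other genes of these pathways were described through 5 lists. Among ligands, 11 of 14 were measured, 0 were called and the median ratio was -0.05. Apln, the ligand of the apelin receptor, read 0.30 and 0.45 (0.38 ± 0.11), with means of 0.16 and 0.42 on its other probes. Vegfa, the ligand of Kdr and Flt1, read 0.01 and -0.57 (-0.28 ± 0.41), with -0.30 and -0.10 on its other probes. Among other vascular receptors 13 of 14 were measured, 0 were called and the median was 0.09. The apelin receptor gene Aplnr read 0.10 and 0.56 (0.33 ± 0.32), with 0.49 on its other probe, and the VEGF co-receptor gene Nrp2 had a mean of 0.28 ± 0.10.

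All 12 hemangioblast and blood-forming transcription factor genes were measured, with 0 called and a median of -0.09. Etv2, an ETS factor at the head of the endothelial and blood programme, read -0.74 and -0.44 (-0.59 ± 0.21). Its levels were 13.34 and 13.26 in the heterozygote and 12.60 and 12.82 in the homozygote. They did not overlap, as for 16.6% of all measured genes in that direction, and Etv2 missed the rule on array 2. Runx1, a factor of blood stem cell formation, read -0.34 on its brightest probe (± 0.00) and 0.16 on its other probe. All 12 endothelial transcription factor genes were measured too, with 0 called and a median of 0.03. Klf2, a flow-responsive factor, read -0.63 and 1.13 (0.25 ± 1.24) and -0.02 on its other probe. Ets1 read 0.21 ± 0.21, with 0.09, 0.24 and 0.08 on its other probes.

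Among endothelial surface and junction genes 16 of 20 were measured, 1 was lower, 0 were higher and the median was -0.14. The lower gene was Mmrn2, which encodes an extracellular matrix protein of endothelium (chr14:33232761-33232820, 1 probe). It read 10.16 and 9.85 in the heterozygote and 8.92 and 8.65 in the homozygote. The genotypes did not overlap, as for 16.6% of all measured genes in that direction, and the ratios were -1.23 and -1.21 (-1.22 ± 0.02). Emcn, Clec14a, Stab1 and Lyve1 were not measured. Over the measured genes of the 5 lists (11, 13, 12, 12 and 16), Mmrn2 was the 1 called gene. Among all measured genes the same rule called 2.4%.

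**Figure D5:**
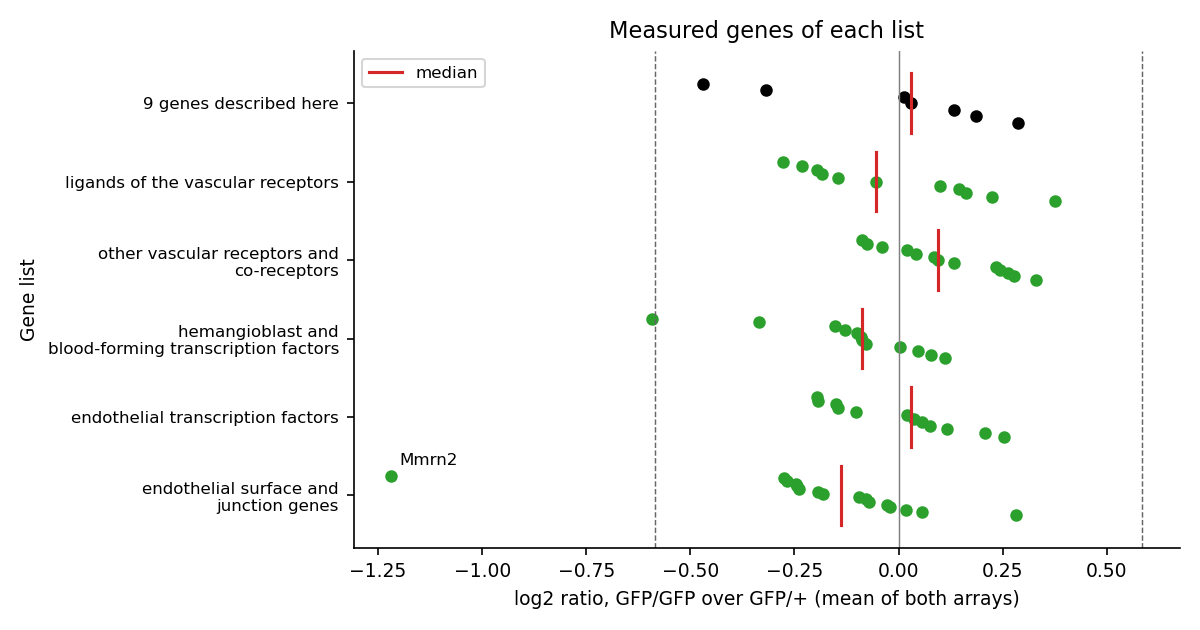
Mean log2 ratio of homozygote over heterozygote over both arrays (horizontal axis) for each measured gene of the endothelial and hemangioblast set (black) and of the 5 pathway lists (green, vertical axis), with red bars for list medians and dashed lines at 1.5-fold. Mmrn2 at -1.22 lies farthest out, and Etv2 at -0.59 has a mean past the line but missed it on array 2.

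Markers of other cell types that a distal piece could hold were read the same way. Of the erythroid and megakaryocyte markers 12 of 18 were measured. The adult globins Hbb-bt (-1.36 ± 0.07), Hba-a1 (-1.05 ± 0.18) and Hba-a2 (-0.86 ± 0.07) were lower. Other Hbb-bt probes had means of -0.98, -1.27 and -0.51, the last short of 1.5-fold on array 1 (-0.42). Near-identical globin copies may share these probes. Of the 12 measured genes 9 were below 0 on both arrays, as were 34% of all measured genes. The summed linear level of the 12 was 19207 to 23634 in the homozygote and 26310 to 31795 in the heterozygote, without overlap. Without these 3 globins, a choice made after seeing the data, the sums of the other 9 overlapped. They were 16896 and 14140 in the homozygote on arrays 1 and 2, and 16466 and 15230 in the heterozygote. Tfrc (homozygous levels 13.31 and 13.10) and Epor (11.96 and 11.59) were the brightest of the 9 and weigh most in these sums. Dim genes such as Hbb-y (8.43 and 7.42) hardly enter them. Among those 9, the erythroid transcription factor gene Gata1 was above 0 on both arrays (0.28 and 0.13). Klf1, Epor, Alas2, Slc4a1 and Tfrc had means from -0.09 to -0.01. The other measured globins, Hbb-y (-0.35 and -0.53) and Hbb-bh1 (-0.17 and -0.21), were below 0 on both arrays, as was Gp1bb (-0.27 and -0.34). All 9 were named after their values were seen. Trophoblast markers (8 of 10 measured, 0 called, median -0.28) summed to 16840 to 18800 against 21908 to 22043, also without overlap. Plet1 was at -0.53, with -0.20 on its other probe, and Prl3d1 at 0.36. Of the 8, 5 were below 0 on both arrays and 2 above (Prl3d1 and Ascl2), against 34% and 25.7% of all measured genes. For list sums without overlap no such share was computed. The brightest, Hand1 (homozygous levels 12.81 and 12.63), weighs most in the sum and is also listed as a mesoderm marker below. The measured globins and the sum of the trophoblast markers, though not each of those markers, read lower in the same homozygous samples as Kdr and Tal1. Their part in the members' ratios was not tested.

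The remaining marker lists overlapped between genotypes in their sums. Of the white blood cell markers 5 of 10 were measured and 0 called (median -0.12; Fcer1g -0.19, Lyz2 -0.14; sums 1467 to 1778 against 1612 to 1934), and Ptprc, Csf1r, Adgre1, Tyrobp and Spi1 were not measured. Extraembryonic and posterior mesoderm markers (9 of 10 measured, 0 called, median -0.04) included Hand1 at -0.33 and Tdo2 at 0.19, with sums of 85902 to 99451 against 92106 to 103018. Visceral endoderm markers (10 of 10 measured, 0 called, median 0.02) included Cubn at 0.24 and Apob at 0.21, with sums of 198085 to 210702 against 187452 to 227922. Of these 10, 5 were above 0 on both arrays, 1 below and 4 of opposite sign. Node and notochord markers (11 of 12 measured, 0 called, median -0.09) included Gsc at -0.66 and Foxj1 at -0.52, with sums of 313409 to 317968 against 302756 to 323214. Of these 11, 6 were below 0 on both arrays, 3 above (T, Cer1 and Chrd) and 2 of opposite sign. Over all measured genes 34% were below 0 on both arrays and 25.7% above. Of the decidua markers 8 of 12 were measured and 1 was higher, Prl8a2 (1.11 ± 0.03), with a list median of 0.06 and sums of 33441 to 41265 against 33893 to 40828.

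Noto is not analysed here, and the genotype labels were therefore not checked against the gene they name. Between 64.0% and 81.5% of the 43379 gene spots were well above background, with array 2 the lower in both dyes, and 0 were saturated. Slopes of observed on expected log ratio for spiked-in RNAs were 0.809 and 0.705 in the scanner software's report, both below 1.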

How the data were processed

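Per the file headers, the authors read both arrays with Agilent Feature Extraction 9.5.3.1, which wrote each spot's foreground and background intensity, a processed intensity, a log10 ratio of red over green and flags. The 2 samples of an array have identical files, read once. The authors also deposited a value table of intensity per sample, which follows the processed intensity of the labelled dye times 1.07 (array 1) or 1.28 (array 2), floored at 15; column medians were 109.6 and 110.6 on array 1 and 95.1 and 96.2 on array 2. Its centring is unstated.

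From mean foreground and median background, limma 3.58.1 (R 4.3.3) applied normexp (offset 50) and loess within arrays, with control spots at weight 0 and outlier spots (179 and 165) left out. Ratios were turned to homozygote over heterozygote by the dye labels. Spots of a probe were averaged, and a gene took its brightest measured probe. Levels add Aquantile scaling. Names were updated through a RefSeq table (GRCm38.p6): 33116 probes matched and 8058 kept the file's name. Promoter windows came from RefSeq on the same build. The summaries were computed in Python 3.11.15 with pandas 2.3.3. The steps were tested on simulated data. The precision is limited by the number of arrays.

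The members and lists were chosen with earlier results of these data known. All members are named, and of each other list the called genes (up to 4) or else the 2 measured genes farthest from 0. Alternatives changed the background correction, scaling, source of the ratio, probe choice, filter, size rule and arrays used.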

Additional observations from a re-analysis of the deposited data

How the results depend on the processing

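No paired analysis was possible because no test was made; every ratio sets both genotypes side by side on one array, and equal replicate numbers mark technical repeats of 1 pool per genotype. No member was called with no background correction, median centring, the software's log ratio, the value table, the mean of probes, no filter, a stricter filter, or a 1.3-fold or 2-fold rule. The 2-fold rule could not add a call. Both filter changes kept the same probe for each measured member, so only Pecam1 and Tie1, with no filter, could have been added. With 1 array left out, 0 to 1 members were called (Tal1, without replicate 1). The member median, 0.03, was 0.083 with the software's log ratio, 0.10 with the value table and 0.035 to 0.074 on single arrays. Of 49 values of single members under alternatives, 10 moved past the SD between arrays, and the mean changed sign in 4. These were Cdh5 with no background correction (-0.013), median centring (-0.12) and the value table (-0.064), and Tek with the mean of probes (-0.07). The 49 include values that could not move: those of both filter changes, and the mean of probes for genes with 1 measured probe. That SD also differs by gene. Lmo2 (SD 0.0018) moved from 0.133 to 0.127 with no background correction. Flt1 (SD 0.36) counted as unmoved from 0.29 to 0.51 with median centring. With no filter Pecam1 read -0.02 and Tie1 -0.03.

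Among all genes, 11 were higher and 434 lower. These became 101 and 713 with the software's log ratio, 95 and 651 with the value table, 118 and 914 at 1.3-fold, 2 and 94 at 2-fold, and 112 to 124 higher and 643 to 944 lower on single arrays. The 1 called pathway gene became 2 at 1.3-fold and 2 to 3 on single arrays. Fewer arrays and another fold limit change these counts by construction, and for the other settings the cause was not tested. Low signal limits Pecam1, Tie1, Cdh5 and both Tek probes, and 1 pool per genotype limits every value.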
